A study of Homo sapiens with 12 samples.

Results

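FUT1, ARHGAP33, GSTO2, ANXA3 and PRSS3 are 5 protein-coding genes of different families that were chosen by their large measured falls in abundance after SUPT4H1 was knocked down, outside the other gene families that were looked at. They were found by symbol among 57704 genes of the count table, and each symbol matched 1 row. All 5 passed the filter on low counts, as did 13811 genes in all. The values that chose them are the differences described here between the knockdown and the control, so those differences are given as a description and are not tested.

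The cells were HEK293, an established human embryonic kidney line, with a stable reporter in which an endogenous intronic sequence is joined to DARP and EGFP, and every library came from this reporter line. A group of 6 libraries came from cells given pooled siRNAs against SUPT4H1, and a group of 6 from cells given scrambled siRNAs, each at 100 nM and lysed after 72 hours. The transfections were separate but began from 1 culture, so the spread between libraries is that between transfections. SUPT4H1 encodes SPT4, the small subunit of DSIF, an elongation factor that travels with RNA polymerase II and takes part in its pausing and in its passage through gene bodies. Libraries were made from the 3′ ends of polyadenylated RNA, so that a transcript gives about 1 tag whatever its length. In such bulk samples, fewer cells of a type and less RNA per cell cannot be told apart.

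FUT1 encodes the α1,2-fucosyltransferase that makes the H antigen, the sugar on which the A and B blood group antigens are built. ARHGAP33 encodes a protein of the sorting nexin family that is known from neurons. GSTO2 is an omega-class glutathione transferase that can reduce dehydroascorbate. ANXA3 is an annexin, a protein that binds membrane phospholipids when calcium is present. PRSS3 encodes mesotrypsin, a trypsinogen whose active form resists the usual trypsin inhibitors.

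SUPT4H1 itself checks the labels. It averaged 20.8 ± 1.63 CPM in SUPT4H1 siRNA libraries and 184 ± 9.11 CPM in scrambled siRNA libraries (SD, n = 6 each), where CPM are counts per 1000000 endogenous counts after TMM scaling. On the log2 scale it fell by 3.14 (SE 0.08) in relative abundance, with an edgeR adjusted p of 2.57e-17 after Benjamini-Hochberg correction. Endogenous counts per library were between 6591194 and 11366971 with SUPT4H1 siRNA and between 7337033 and 20269171 with scrambled siRNA. RNA integrity numbers were 9.6 to 10. On the second principal component, with 16.0% of the variance, SUPT4H1 siRNA replicate 6 stood at 42.5 and the other libraries of its group between −21.2 and −4.50; without replicate 6 the log2 fold changes of the 5 genes described were −2.27 for FUT1, −2.09 for ARHGAP33, −1.90 for GSTO2, −1.86 for ANXA3 and −1.94 for PRSS3. All 8 markers listed for the HEK293 line were measured above the filter, with a summed level of 1375 to 1489 CPM in SUPT4H1 siRNA libraries and 1663 to 2202 CPM in scrambled siRNA libraries. Most of that sum is NEFL, a neurofilament gene, at 934 ± 49.4 CPM in SUPT4H1 siRNA libraries and 1435 ± 210 CPM in scrambled siRNA libraries (SD, n = 6 each); NEFL (−0.62) and KRT18 (−0.45) fell and VIM rose in relative abundance (0.27, and −0.56 with spike-in scaling; edgeR adjusted p = 1.56e-05, 0.00093 and 0.011). Of 6 endothelial and 8 leukocyte markers none passed the filter, and CDH5, CLDN5, PTPRC and S100A8 are listed at 0 in every library.

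Promoter sequences of these genes were searched for a few short motifs. RefSeq windows (GRCh38.p14, 250 bases before to 50 after a start) were at hand for 4 of the 5 genes, and 1 window of each is given 5′ to 3′ on the gene's strand, with capitals for matches on either strand to the GC box core GGGCGG, the CCAAT box or the E-box CACGTG. The FUT1 window lies on the minus strand at chr19:48752592-48752891, that of GSTO2 on the plus strand at chr10:104268934-104269233, that of ANXA3 on the plus strand at chr4:78551520-78551819, and that of PRSS3 on the plus strand at chr9:33795311-33795610.
FUT1: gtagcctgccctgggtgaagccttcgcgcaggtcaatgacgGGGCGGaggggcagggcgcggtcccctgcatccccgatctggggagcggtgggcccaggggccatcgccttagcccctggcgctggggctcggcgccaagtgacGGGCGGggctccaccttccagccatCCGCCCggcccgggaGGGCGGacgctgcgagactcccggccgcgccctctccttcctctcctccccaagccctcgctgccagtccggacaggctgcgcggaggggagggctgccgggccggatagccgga
GSTO2: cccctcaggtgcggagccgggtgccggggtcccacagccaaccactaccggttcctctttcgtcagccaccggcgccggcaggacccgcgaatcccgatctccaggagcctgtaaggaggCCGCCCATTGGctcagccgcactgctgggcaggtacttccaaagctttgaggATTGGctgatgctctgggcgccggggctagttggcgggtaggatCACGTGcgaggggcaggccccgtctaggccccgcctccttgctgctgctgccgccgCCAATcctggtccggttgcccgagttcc
ANXA3: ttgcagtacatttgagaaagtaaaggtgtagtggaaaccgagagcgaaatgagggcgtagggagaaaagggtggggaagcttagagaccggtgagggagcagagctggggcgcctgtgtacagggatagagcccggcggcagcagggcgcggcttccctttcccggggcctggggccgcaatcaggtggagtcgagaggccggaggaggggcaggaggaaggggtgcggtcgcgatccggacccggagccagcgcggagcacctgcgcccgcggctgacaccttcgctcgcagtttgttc
PRSS3: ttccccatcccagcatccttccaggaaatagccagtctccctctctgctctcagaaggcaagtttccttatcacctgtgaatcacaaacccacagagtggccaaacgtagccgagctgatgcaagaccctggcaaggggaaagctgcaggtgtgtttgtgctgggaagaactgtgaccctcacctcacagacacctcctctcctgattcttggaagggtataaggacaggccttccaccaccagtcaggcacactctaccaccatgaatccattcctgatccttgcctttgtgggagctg

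The windows differed in base composition. GC content was 75.0% in the FUT1 window, 68.0% in that of GSTO2, 64.7% in that of ANXA3 and 53.3% in that of PRSS3, against a median of 58.7% over 35116 RefSeq promoter windows. The observed over expected ratio of CpG was 0.71, 0.69 and 0.87 for FUT1, GSTO2 and ANXA3 and 0.097 for PRSS3, against a median of 0.58. FUT1 has a further start site upstream, at chr19:48755309-48755608, whose window held 58.7% GC and a CpG ratio of 0.12. The second start site of GSTO2, at chr10:104274916-104275215, had 63.7% GC and a CpG ratio of 0.43. All printed windows lie within the annotated spans of their genes. Those of GSTO2 and ANXA3 lie near the start of the span, at 104268873 and 78551519. The PRSS3 window lies farther inside, with the span starting at 33750466, as does the FUT1 window, with the minus-strand span starting at 48755390. The further window of FUT1 holds that start.

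No motif searched was found in all 4 of these windows. GGGCGG occurred 4 times in the FUT1 window and 1 time in that of GSTO2, and 45.0% of all windows hold it on one strand or the other. CCAAT occurred 3 times in the GSTO2 window, of which 1 directly adjoins its GGGCGG match without overlap, and CACGTG 1 time; the shares of all windows were 34.6% and 7.26%. Neither the ANXA3 nor the PRSS3 window held any of these motifs, nor did the other windows of FUT1 and GSTO2, which are not printed; for these 2 genes the window with matches is the one shown. TATAAA (11.5% of all windows), TGACTCA (4.95%) and CCGGAAG (10.3%) were searched on both strands too and had no match in any of the 6 windows of these genes. Only these exact letters were searched, so near forms such as TATAAG in the PRSS3 window are not counted. A match in a window is a description of its letters and not a site of binding.

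FUT1 was the member with the lowest level left in relative terms. In SUPT4H1 siRNA libraries it had 0.292 CPM in the lowest library, a median of 0.748 CPM and 1.71 CPM in the highest, and in scrambled siRNA libraries 3.79, 5.49 and 7.36 CPM. The groups did not overlap, and the lowest scrambled library stood 2.22 times above the highest SUPT4H1 library. These levels rest on 2 to 18 counts per SUPT4H1 siRNA library and 38 to 128 per scrambled siRNA library. Means were 0.955 ± 0.555 CPM in SUPT4H1 siRNA libraries and 5.35 ± 1.37 CPM in scrambled siRNA libraries (SD, n = 6 each). The relative log2 fold change was −2.42 (SE 0.29), which leaves 18.7% of the scrambled level. FUT1 (ENSG00000174951) lies on chromosome 19 from 48748011 to 48755390 (GRCh38, minus strand), and no annotated gene overlaps it.

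ARHGAP33 had 1.21 CPM in the lowest SUPT4H1 siRNA library, a median of 1.61 CPM and 2.22 CPM in the highest, against 4.71, 7.31 and 11.4 CPM in scrambled siRNA libraries. The spread was wide in the scrambled group, where replicate 4 was the highest and replicate 2 the lowest, but even replicate 2 stood 2.12 times above the highest SUPT4H1 siRNA library. Counts were 9 to 24 per SUPT4H1 siRNA library and 84 to 139 per scrambled siRNA library. With means of 1.67 ± 0.421 CPM in SUPT4H1 siRNA libraries and 7.61 ± 2.33 CPM in scrambled siRNA libraries (SD, n = 6 each), the relative log2 fold change was −2.13 (SE 0.23), or 22.9% of the scrambled level. ARHGAP33 (ENSG00000004777) lies on chromosome 19 from 35774532 to 35788822 (plus strand). LINC01529, on the opposite strand, shares 209 exonic bases with it and is listed at 0 counts in all 12 libraries. None of the 3 annotated coding 3′ ends of ARHGAP33 lies in an exon of LINC01529.

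GSTO2 was the best-counted of the 5, with 23 to 79 counts per SUPT4H1 siRNA library and 135 to 381 per scrambled siRNA library. It had 3.09 CPM in the lowest SUPT4H1 siRNA library, a median of 5.00 CPM and 6.85 CPM in the highest, against 17.5, 19.9 and 21.9 CPM in scrambled siRNA libraries. The scrambled libraries lay close together, and the lowest of them was 2.56 times the highest SUPT4H1 siRNA library. Means were 5.08 ± 1.41 CPM in SUPT4H1 siRNA libraries and 19.9 ± 1.75 CPM in scrambled siRNA libraries (SD, n = 6 each). The relative log2 fold change was −1.94 (SE 0.15), which leaves 26.0% of the scrambled level. GSTO2 (ENSG00000065621) lies on chromosome 10 from 104268873 to 104304945 (plus strand), and no annotated gene overlaps it.

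ANXA3 showed a larger relative spread in the knockdown group than in the control. It had 1.61 CPM in the lowest SUPT4H1 siRNA library, a median of 2.79 CPM and 4.16 CPM in the highest, against 9.13, 11.2 and 12.4 CPM in scrambled siRNA libraries. SUPT4H1 siRNA replicates 2, 3 and 5 were high within their group and replicates 1, 4 and 6 low, and all 6 stayed below the scrambled libraries, the lowest of which was 2.19 times the highest SUPT4H1 siRNA library. Means were 2.79 ± 1.08 CPM in SUPT4H1 siRNA libraries and 10.9 ± 1.24 CPM in scrambled siRNA libraries (SD, n = 6 each), from 12 to 41 and 86 to 198 counts per library. The relative log2 fold change was −1.93 (SE 0.19), or 26.2% of the scrambled level. ANXA3 (ENSG00000138772) lies on chromosome 4 from 78551519 to 78610451 (plus strand), with no overlapping gene.

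PRSS3 had 1.92 CPM in the lowest SUPT4H1 siRNA library, a median of 2.77 CPM and 4.04 CPM in the highest, against 8.76, 10.2 and 12.1 CPM in scrambled siRNA libraries. The groups were apart by a factor of 2.17 between the lowest scrambled and the highest SUPT4H1 siRNA library, and within the knockdown replicate 1 was the highest and replicate 5 the lowest. Means were 2.82 ± 0.823 CPM in SUPT4H1 siRNA libraries and 10.5 ± 1.34 CPM in scrambled siRNA libraries (SD, n = 6 each), from 18 to 46 and 74 to 212 counts per library. The relative log2 fold change was −1.89 (SE 0.18), or 26.9% of the scrambled level. PRSS3 (ENSG00000010438) lies on chromosome 9 from 33750466 to 33799231 (plus strand).

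The identity of the PRSS3 counts was looked at more closely, because trypsinogen genes are close copies of each other. PRSS1, PRSS2 and the pseudogene PRSS3P1 are listed at 0 counts in all 12 libraries. So is the tubulin gene TUBB3, and the counter is not known, so such a 0 sets no limit on the transcript. Among 749 distinct 50-base words in the last 500 bases of annotated coding PRSS3 transcripts, 33 (4.41%) also occurred in a transcript of PRSS3P1, PRSS2 or PRSS3P4. FUT1, ARHGAP33, GSTO2 and ANXA3 had no such shared word among 451 to 1398 words. The antisense gene UBE2R2-AS1 overlaps PRSS3 by 72 exonic bases, holds 1 of the 3 annotated coding 3′ ends of PRSS3 in an exon, and is listed at 0 counts. Since neither read length nor the strand setting is stated, the counts of PRSS3 are uncertain to the extent of these shared words and bases.

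**Figure D1:**
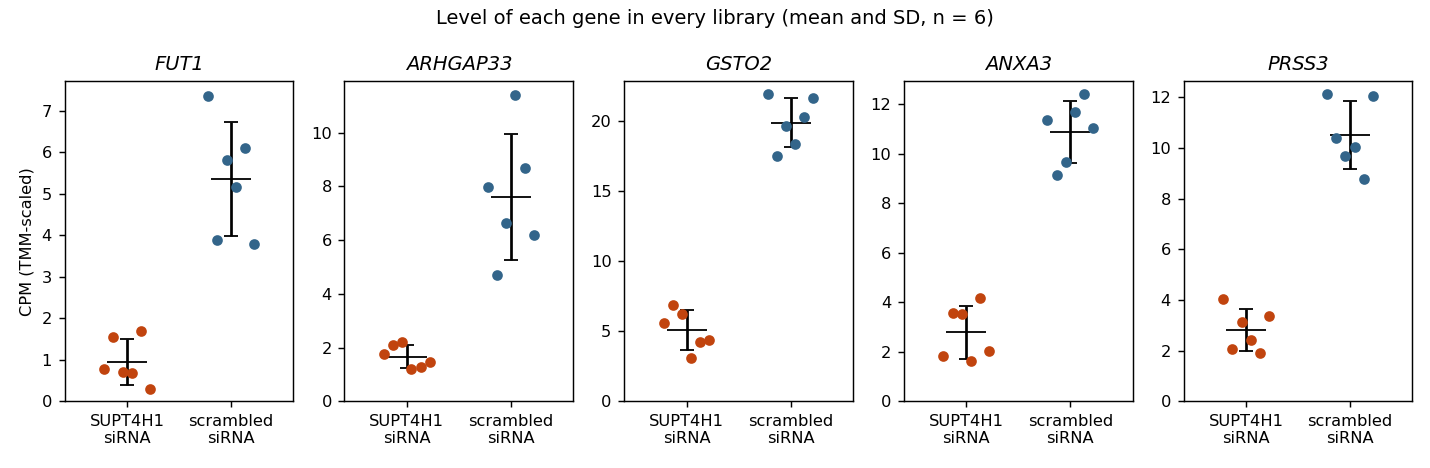
Level of each of the 5 genes in CPM (vertical axis, starting at 0) for the 6 SUPT4H1 siRNA libraries (orange, left) and the 6 scrambled siRNA libraries (blue, right) in replicate order, with mean and SD in black. For each gene every SUPT4H1 siRNA library lies below every scrambled siRNA library, with FUT1 between 0.292 and 1.71 CPM in the first and between 3.79 and 7.36 CPM in the second.

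For all 5 genes the libraries of the groups did not overlap, which was also so, in the direction of lower levels with SUPT4H1 siRNA, for 10.2% of the 13811 genes tested, and in either direction for 20.4%. Since the 5 genes were taken from among the genes that were apart in this way, nothing is read from that count. A fall was called for 20.2% of tested genes and a rise for 20%, together 40.2% (edgeR quasi-likelihood test, adjusted p under 0.05), and 2.12% were called with a fall of 2-fold or more. From the lowest log2 fold change upward, FUT1 was in place 15, ARHGAP33 20, GSTO2 32, ANXA3 34 and PRSS3 38 of 13811 genes.

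An order of falls was made of called genes that reach 5 CPM as the mean of either group and keep their groups apart. Only genes with a symbol were taken, and clone names and numbered LINC names were left out. Of such genes 1201 fell, and the 5 took places 4, 6, 8, 10 and 12. FUT1 came after SUPT4H1, KDF1 (−2.80) and RAB39B (−2.74), and EPCAM (−2.23) stood between FUT1 and ARHGAP33. RNU5F-1, SCARNA22 (−1.93) and BSPRY (−1.90) stood between the others. PRSS3, the last inside at −1.89 (SE 0.18), was followed by MARVELD3 at −1.89 (SE 0.18) and SLC4A8 at −1.82 (SE 0.22). These are well within 1 SE of PRSS3, so the border of the group marks no step in the data.

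**Figure D2:**
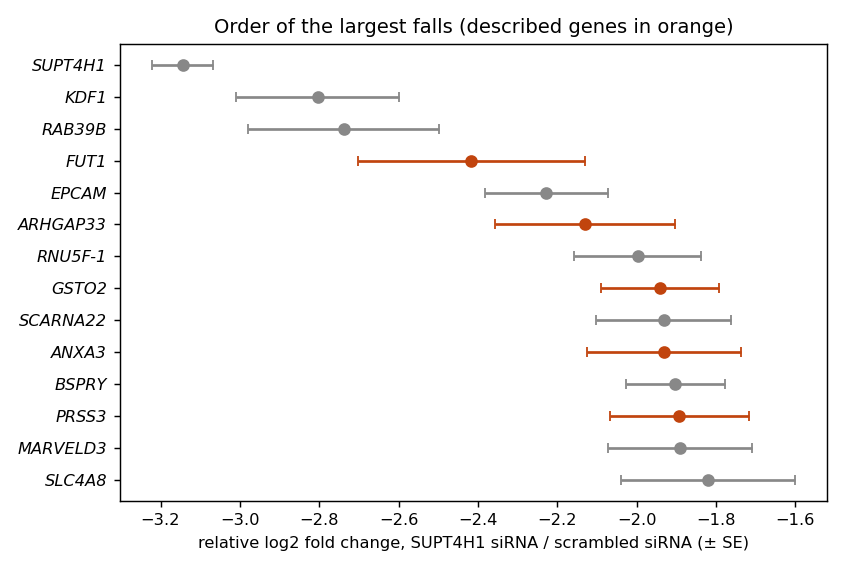
Relative log2 fold change of SUPT4H1 siRNA over scrambled siRNA (horizontal axis, dots with SE) for the largest falls in order, with the 5 described genes in orange. From GSTO2 at −1.94 to SLC4A8 at −1.82 the errors overlap.

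The measured spread between libraries differed from gene to gene, a difference that was not tested. FUT1 had a coefficient of variation of 58.1% in SUPT4H1 siRNA libraries, where counting alone gives 32.9%, and of 25.7% in scrambled siRNA libraries, where counting gives 11.6%. ARHGAP33 had 25.2% in SUPT4H1 siRNA libraries, about the 25.3% of counting, and 30.6% in scrambled siRNA libraries, well above the 10.2% of counting. GSTO2 varied by 27.7% and 8.81%, ANXA3 by 38.7% and 11.4%, and PRSS3 by 29.1% and 12.7% in SUPT4H1 siRNA and scrambled siRNA libraries, with counting at 14.4% and 5.99%, 19.5% and 8.21%, and 19.8% and 8.25%. At these depths a sizeable part of the spread among SUPT4H1 siRNA libraries is that of counting.

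With group means removed, the 5 genes did not share 1 pattern over the 12 libraries. Pearson's r of log2 CPM ran from −0.62 for FUT1 with PRSS3 to 0.64 for FUT1 with ANXA3 over 10 pairs, of which 8 were positive. Within the knockdown, FUT1 and ANXA3 were both highest in replicate 5, in which PRSS3 was lowest, while ARHGAP33, GSTO2 and ANXA3 were lowest in replicate 4. The same measure was taken over 10571 genes with 5 CPM or more and a symbol other than a clone or numbered LINC name. FHL2 (0.97), EVA1B (0.96) and ATRNL1 (0.95) were most like FUT1. PABPC4L (0.87), ZNF646 (0.84) and SEPN1 (0.83) were most like ARHGAP33, and OBFC1 (0.93), SH3BP1 (0.89) and STAG3L4 (0.89) most like GSTO2. ROR2 (0.93), PTPN18 (0.91) and ZNF430 (0.91) were nearest to ANXA3, and DGAT1 (0.85), HOTAIRM1 (0.80) and COPS5 (0.80) to PRSS3. These are the highest of many values over the same 12 libraries, and they carry no test.

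Some of these genes changed with the knockdown themselves. Of these 15 genes the relative log2 fold change was lowest for OBFC1 (−0.93), SH3BP1 (−0.91) and STAG3L4 (−0.66), the 3 nearest to GSTO2, which fell (edgeR adjusted p = 2.45e-05, 1.36e-05 and 4.57e-05). FHL2 (−0.45, adjusted p = 0.0064) and ATRNL1 (−0.56, adjusted p = 0.0014) fell by edgeR, and EVA1B had −0.24 (adjusted p = 0.19). Of those nearest to ARHGAP33, SEPN1 (0.64, adjusted p = 0.00010) and PABPC4L (0.49, adjusted p = 0.022) rose in relative abundance, opposite to ARHGAP33 itself, and ZNF646 had −0.09 (adjusted p = 0.69). Of those nearest to ANXA3, ZNF430 fell (−0.32, adjusted p = 0.0024), and ROR2 (−0.15, adjusted p = 0.43) and PTPN18 (0.11, adjusted p = 0.50) were not called. Those nearest to PRSS3 were not called, with COPS5 at −0.06, HOTAIRM1 at −0.01 and DGAT1 at −0.41 (adjusted p = 0.57, 0.96 and 0.057).

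Whether the level of a member followed the SUPT4H1 mRNA left in a library was asked within the 6 SUPT4H1 siRNA libraries, a relation that the choice of genes did not use. SUPT4H1 was at 17.9 to 22.8 CPM there, a narrow range. Pearson's r was 0.71 for ANXA3 (exact two-sided permutation test, n = 6, p = 0.053, adjusted p = 0.26 over 5 relations) and 0.61 for FUT1 (exact permutation p = 0.13, adjusted p = 0.31). Spearman's coefficient was 0.66 for ANXA3 (exact permutation p = 0.17, adjusted p = 0.44) and 0.89 for FUT1 (exact permutation p = 0.033, adjusted p = 0.17). GSTO2 (r = 0.48, Spearman 0.26), ARHGAP33 (r = 0.25, Spearman 0.20) and PRSS3 (r = −0.08, Spearman −0.26) had exact permutation p-values of 0.35 to 0.86, and 0.58 to 0.86 after adjustment. None of the 5 relations passed. SUPT4H1 itself had a coefficient of variation of 7.84% in these libraries, where counting alone gives 7.27%. None of the 5 relations could therefore be measured well. FUT1 had 2 to 18 counts there and a coefficient of variation of 58.1%, where counting alone gives 32.9%. Without the 2 libraries farthest from the median SUPT4H1 level r was 0.09 for ANXA3, so that value rests on those libraries, and it was 0.74 for FUT1, 0.66 for GSTO2, 0.38 for ARHGAP33 and −0.07 for PRSS3.

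Scaled to the ERCC standards added to each lysate of 1000000 cells, the falls were deeper. The log2 fold change was −3.20 (SE 0.41) for FUT1, −3.14 (SE 0.39) for ARHGAP33, −2.83 (SE 0.36) for GSTO2, −2.73 (SE 0.37) for ANXA3 and −2.83 (SE 0.37) for PRSS3, which leaves 10.9% to 15.1% of the scrambled level. Spike-in-scaled minus relative values were −1.01 to −0.78, near the median of −0.82 that all tested genes had with the standards and −0.0015 in relative terms. With this scaling a fall was called for 59% of tested genes and a rise for 0.311%. The groups remained apart for all 5 genes. The nearest libraries were those of ANXA3, where SUPT4H1 siRNA replicate 5 had 6.32 and the lowest scrambled siRNA library 10.0 spike-in-scaled CPM. Mix 2 of the standards went with SUPT4H1 siRNA and mix 1 with scrambled siRNA, so a difference between the mixes and the knockdown cannot be told apart.

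**Figure D3:**
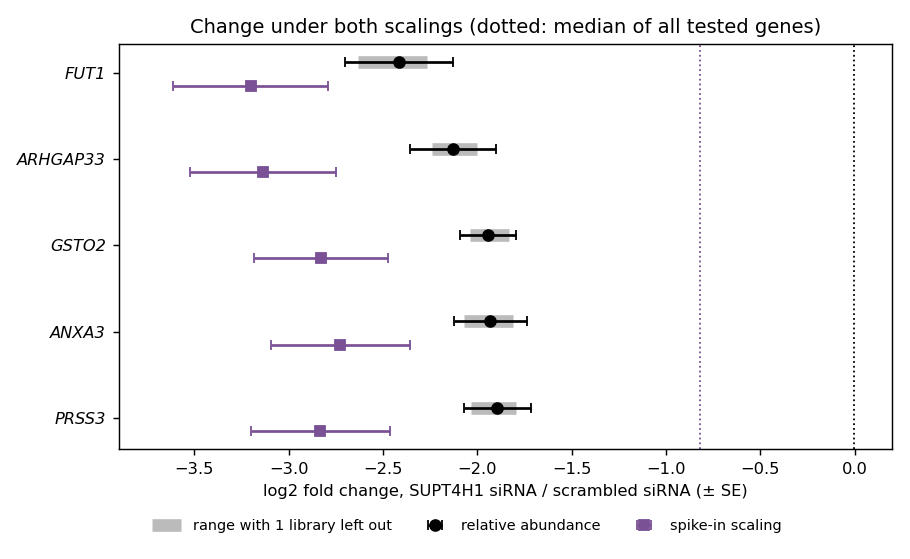
Log2 fold change of SUPT4H1 siRNA over scrambled siRNA (horizontal axis, with SE) for each gene in relative abundance (black dots) and with spike-in scaling (purple squares), with grey bars for the range when 1 library is left out. The dotted lines mark the medians of all tested genes, −0.0015 and −0.82. The 5 genes, chosen for large falls, lie well to the left of them in both.

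FUT2, which makes the H antigen in secretions, had 11 counts in all 12 libraries together. Of 12 other fucosyltransferase genes 6 were tested, of which 2 fell (33.3%, beside 20.2% of all tested genes) and none rose, and their median log2 fold change in relative abundance was −0.22, against −0.0015 over all tested genes. FUT11 had 75.6 ± 5.31 CPM in SUPT4H1 siRNA libraries and 94.6 ± 5.55 CPM in scrambled siRNA libraries (SD, n = 6 each), a log2 fold change of −0.32 (edgeR adjusted p = 0.0012), and FUT10 fell by 0.47 on the log2 scale (adjusted p = 0.030, and 0.017 to 0.097 with 1 library left out). FUT4 (−0.19), FUT8 (−0.09), POFUT1 (0.08) and POFUT2 (−0.25, adjusted p = 0.088 by edgeR) were not called.

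Genes that supply or remove fucose did not move 1 way. Of 8 genes 7 were tested, of which 1 fell and 3 rose in relative abundance (median 0.17). These are shares of 14.3% and 42.9%, beside 20.2% and 20% of all tested genes. GMDS, which starts the synthesis of GDP-fucose, had 43.6 ± 4.47 CPM in SUPT4H1 siRNA libraries and 62.0 ± 4.27 CPM in scrambled siRNA libraries (SD, n = 6 each), a fall (log2 fold change −0.51, edgeR adjusted p = 5.29e-05). TSTA3, the next enzyme of that route, rose in relative abundance (0.44, adjusted p = 0.035), as did the salvage genes FUK (0.52, adjusted p = 0.0026) and FPGT (0.46, adjusted p = 0.035), but with spike-in scaling these 3 stood at −0.45, −0.26 and −0.36. With 1 library left out the adjusted p was 0.013 to 0.10 for TSTA3 and 0.014 to 0.10 for FPGT.

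GSTO2 has a close relative next to it, GSTO1, whose end lies 1414 bases before the start of GSTO2 on the same strand. GSTO1 had 572 ± 62.8 CPM in SUPT4H1 siRNA libraries and 687 ± 59.7 CPM in scrambled siRNA libraries (SD, n = 6 each). It fell by 0.26 on the log2 scale (edgeR adjusted p = 0.015), and its groups overlapped; with RNA integrity as a covariate it had −0.21 and was not called (adjusted p = 0.082). Of 30 further genes of glutathione transferase families, GSTO1 among them, 14 were tested, 2 fell and 2 rose in relative abundance (median 0.09). Each is a share of 14.3%, beside 20.2% and 20% of all tested genes. PTGES, a prostaglandin E synthase of the membrane-bound family, fell (−1.03, adjusted p = 4.43e-06). GSTP1 had 2324 ± 185 CPM in SUPT4H1 siRNA libraries and 1294 ± 94.6 CPM in scrambled siRNA libraries, a relative rise (0.84, adjusted p = 4.82e-08) that stood at −0.00043 with spike-in scaling. GSTCD rose in relative abundance (0.52, adjusted p = 0.025), with −0.35 under spike-in scaling. Its call was lost without SUPT4H1 siRNA replicate 6 (0.34, adjusted p = 0.070), without scrambled siRNA replicate 6 (adjusted p = 0.051), with RNA integrity as a covariate (adjusted p = 0.053) and with the replicate block (adjusted p = 0.074).

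Annexins other than ANXA3 went both ways. Of 12 genes 8 were tested, 2 fell and 2 rose in relative abundance (median 0.14), each 25%, beside 20.2% and 20% of all tested genes. ANXA9, at 0.618 ± 0.463 CPM in SUPT4H1 siRNA libraries and 2.04 ± 0.337 CPM in scrambled siRNA libraries (SD, n = 6 each), had the largest fall of these 8 (log2 fold change −1.67, edgeR adjusted p = 0.0010), on 231 counts in all. ANXA2 fell by 0.46 on the log2 scale (adjusted p = 0.015, and 0.059 with the replicate block). ANXA4 (0.55, adjusted p = 0.00019) and ANXA5 (0.45, adjusted p = 0.00026) rose in relative abundance, with −0.27 and −0.37 under spike-in scaling. ANXA1 (0.30), ANXA6 (−0.04), ANXA7 (0.10) and ANXA11 (0.18) were not called in relative abundance. With spike-in scaling these had −0.52, −0.87, −0.73 and −0.66. Under that scaling ANXA6 and ANXA7 were called as falls (edgeR adjusted p = 0.015 and 0.041), and ANXA1 and ANXA11 were not called. Of 6 S100 genes, whose proteins pair with annexins, 3 were tested and 1 rose in relative abundance (33.3%, beside 20% of all tested genes). This was S100A11 (0.23, edgeR adjusted p = 0.039, and −0.59 with spike-in scaling). Its call was lost on leaving out a library in 6 of 12 cases (highest adjusted p = 0.090).

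Of 39 other serine protease genes only 3 were tested, so HEK293 cells gave little to set beside PRSS3. PRSS16 encodes a thymus-specific serine protease that is not of the trypsin family. It had 11.1 ± 2.69 CPM in SUPT4H1 siRNA libraries and 26.0 ± 3.33 CPM in scrambled siRNA libraries (SD, n = 6 each). PRSS16 fell (log2 fold change −1.22, edgeR adjusted p = 1.19e-06), with no overlap between groups. PRSS23 rose in relative abundance (0.34, adjusted p = 0.0074), with −0.47 under spike-in scaling.

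Inhibitors and receptors of such proteases were better represented. Of 16 genes 10 were tested, 5 fell and 2 rose in relative abundance (median −0.25), which is 50% and 20%, beside 20.2% and 20% of all tested genes. SPINT2, a Kunitz-type inhibitor at the cell surface, had 4.68 ± 2.10 CPM in SUPT4H1 siRNA libraries and 14.4 ± 3.67 CPM in scrambled siRNA libraries (SD, n = 6 each) and fell (log2 fold change −1.62, edgeR adjusted p = 0.00014). SERPINI1 (−0.67, adjusted p = 0.0030) and TFPI (−0.41, adjusted p = 0.0020) fell, and APP, whose longer forms carry a Kunitz domain, rose in relative abundance (0.47, adjusted p = 0.00014, and −0.32 with spike-in scaling). SPINK2 (−0.72, adjusted p = 0.0084) and the receptor gene F2RL2 (−1.002, adjusted p = 0.015, on 168 counts in all) fell too, and TFPI2 rose (0.98, adjusted p = 0.0084, and 0.15 with spike-in scaling). F2RL1, the receptor that trypsins cleave, had 0.19 and was not called (adjusted p = 0.45).

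**Figure D4:**
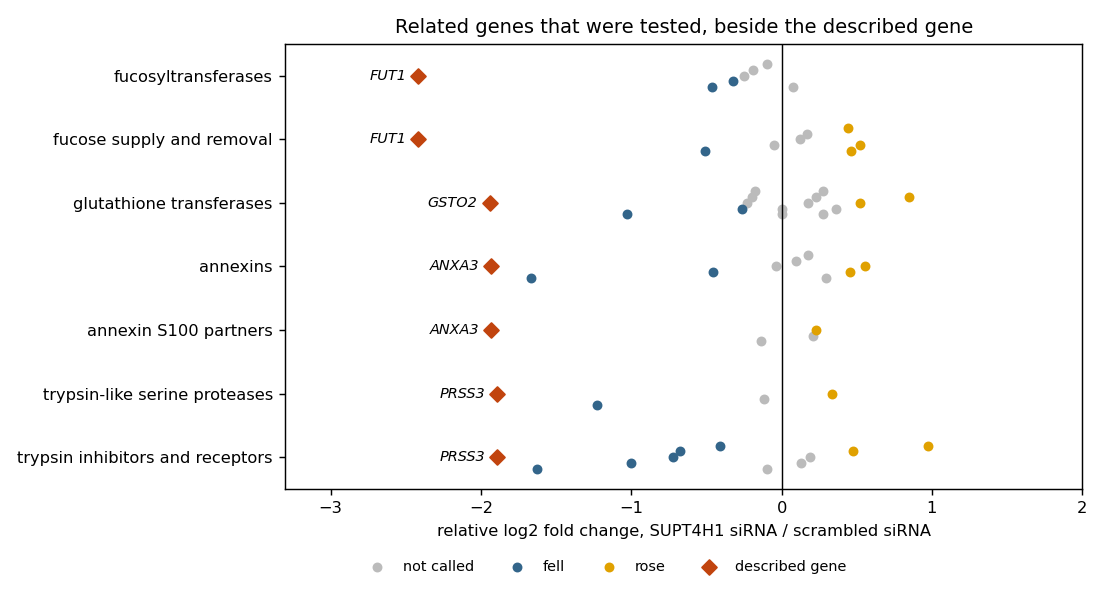
Relative log2 fold change of SUPT4H1 siRNA over scrambled siRNA (horizontal axis) of each tested related gene, by list, with genes that fell in blue, rose in yellow and not called in grey, and the described gene as an orange diamond. In each list the described gene lies left of every tested related gene, the nearest being ANXA9 at −1.67 and SPINT2 at −1.62. Since the described genes were chosen for large falls, nothing is read from that.

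Over these 7 lists, 51 of 123 genes were tested, and 13 fell and 11 rose in relative abundance. These are shares of 25.5% and 21.6%, beside 20.2% and 20% of all tested genes, and the median of 0.0027 was near the −0.0015 of all genes. With the replicate number as a block 12 fell and 7 rose. With spike-in scaling 29 of the 51 fell and 0 rose (edgeR adjusted p under 0.05).

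Neighbouring genes on the chromosome were compared as well, since they were not used in the choice. Where the adjacent gene was not tested, the nearest tested gene was taken too, at up to 165891 bases. Of 19 genes that overlap or adjoin the 5, or are the nearest tested gene on a side, 10 were tested, 2 fell and 2 rose in relative abundance (median −0.12), near the 20.2% and 20% of all tested genes. On the sides of FUT1, BCAT2, 39672 bases away, fell (−0.46, edgeR adjusted p = 0.014). RASIP1, 7290 bases away, was not called (−0.48, adjusted p = 0.17). FGF21, which starts 169 bases from FUT1 on the opposite strand, had 27 counts in all and was not tested. It had 0.0144 ± 0.0354 CPM in SUPT4H1 siRNA libraries and 0.266 ± 0.0717 CPM in scrambled siRNA libraries (SD, n = 6 each). IZUMO1, with 26 counts, was not tested and had 0.0752 ± 0.103 and 0.212 ± 0.156 CPM. Beside ARHGAP33, PROSER3 (0.08) and, 79077 bases away, APLP1 (−0.14) were not called. Beside GSTO2, ITPRIP was not called (−0.23, adjusted p = 0.078). Beside ANXA3, FRAS1 (0.48, adjusted p = 0.0085) and, 165891 bases away, BMP2K (0.48, adjusted p = 0.0495) rose in relative abundance. With spike-in scaling they had −0.40 and −0.34. Beside PRSS3, UBE2R2 (−0.10) and, 49480 bases away, AL356489.2 (0.39) were not called.

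**Figure D5:**
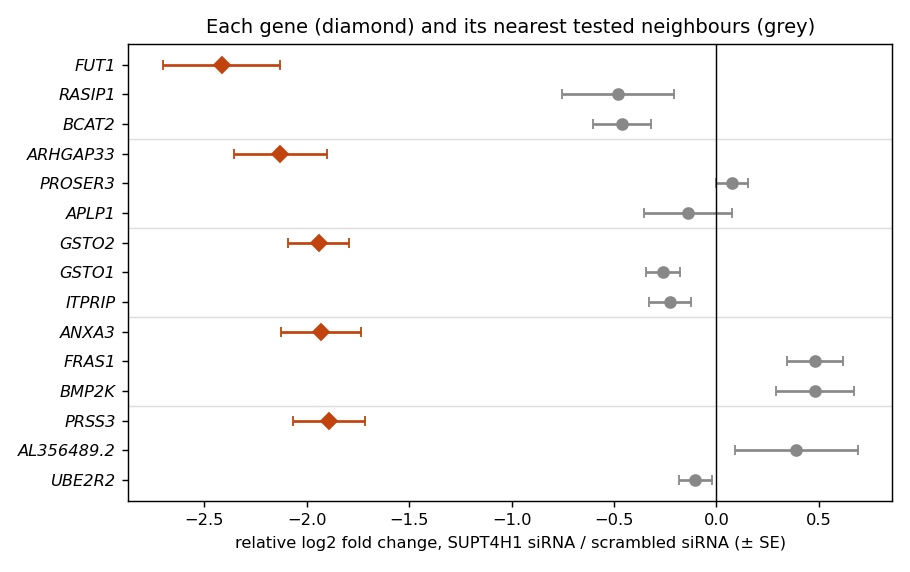
Relative log2 fold change of SUPT4H1 siRNA over scrambled siRNA (horizontal axis, with SE) of each described gene (orange diamond) and its nearest tested neighbours (grey). The neighbours lie between −0.48 and 0.48 and the 5 genes, chosen for large falls, between −2.42 and −1.89.

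In gene structure the 5 had little in common. Gene length ran from 7380 bases for FUT1 and 14291 for ARHGAP33 to 36073 for GSTO2, 48766 for PRSS3 and 58933 for ANXA3, around a median of 29963 over 13789 tested genes. The longest annotated transcript was 1144 bases for PRSS3, 2932 for ANXA3, 4219 for ARHGAP33, 4246 for FUT1 and 6423 for GSTO2, against a median of 3502. In the last 50 bases of annotated coding transcripts, ARHGAP33, GSTO2 and PRSS3 held the poly(A) signal AATAAA, as did 76.0% of 12027 coding genes tested, and FUT1 and ANXA3 held ATTAAA, as did 30.2%.

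The epithelial markers EPCAM and CDH1 fell in the knockdown. The 10 listed epithelial markers, most of whose sum is these 2 and CLDN7, summed to 13.9 to 23.7 CPM in SUPT4H1 siRNA libraries and 31.9 to 47.9 CPM in scrambled siRNA libraries. Of 4 tested, EPCAM (−2.23, edgeR adjusted p = 1.06e-09) and CDH1 (−1.22, adjusted p = 3.90e-07) fell, beside 20.2% of all tested genes, and CLDN7 (−0.29) and OCLN (0.69) were not called. KRT7, KRT19 and GRHL2 had 2, 8 and 3 counts in all libraries together. Of 10 neuronal markers 4 were tested and 2 fell (50%, beside 20.2% of all tested genes), MAP2 (−0.42, adjusted p = 0.0044) and GAP43 (−0.62, adjusted p = 0.018). SYP (0.29, adjusted p = 0.40) and SYT1 (−0.47, adjusted p = 0.073) were not called. The sum of the 10 was 37.9 to 61.6 CPM in SUPT4H1 siRNA libraries and 50.7 to 79.8 CPM in scrambled siRNA libraries. Of 8 fibroblast markers 3 were tested and 2 rose in relative abundance (66.7%, beside 20% of all tested genes), COL3A1 (0.85, adjusted p = 0.016) and PDGFRA (0.78, adjusted p = 0.023). These 2 had −0.02 and −0.17 with spike-in scaling. COL1A1, the third, went the other way and was not called (−0.46, adjusted p = 0.083). The sum of the 8 was 9.60 to 14.7 CPM in SUPT4H1 siRNA libraries and 9.10 to 14.9 CPM in scrambled siRNA libraries. The part of these markers in the levels of the 5 genes was not tested.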

How the data were processed

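Per the labels' protocols, libraries were made with the QuantSeq 3′ forward kit from 200 ng of RNA. The authors deposited 1 table of raw counts per gene. The tools named per the submitters' processing notes are STAR, FastQC 0.11.5, MultiQC and R 3.4.3, with build GRCh38.p10. For the counter, annotation and strand setting nothing is given in the sources used here.

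From the counts, edgeR 4.0.16 in R 4.3.3 (quasi-likelihood test, robust, TMM, default filterByExpr, no covariates) was run on 13811 genes in 12 libraries, SUPT4H1 siRNA against scrambled siRNA, with Benjamini-Hochberg adjustment and a threshold of 0.05. The ERCC rows and a control row named GFP were left out of library sizes and calls. Standard errors are the log2 fold change over the root of the F statistic. Likeness between genes was taken on log2 CPM with a prior count of 2. Relations to SUPT4H1 were taken on CPM and tested with exact permutations in scipy 1.17.1. Spike-in scaling used the 23 ERCC standards of subgroup B, an assignment from general knowledge of the product; medians of subgroups A, C and D stood at −2.02, 0.59 and 0.99 (log2) for nominal −2, 0.58 and 1. Positions are from GENCODE 29 (GRCh38), with 57447 of 57704 genes matched by identifier.

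The 5 genes and all lists were chosen with earlier results of these data known. Genes are named by a rule: the 5 genes, SUPT4H1, up to 4 called genes per list by adjusted p, FUT2, GSTO1, PRSS1, PRSS2 and the tested annexins, overlapping and adjacent genes, the 3 most alike genes of each, and the genes between the 5 and the 2 after them in the order of falls. KDF1, RAB39B, markers, nearest tested neighbours that do not adjoin, PRSS3P1 and other list genes (FUT4, FUT8, POFUT1, POFUT2, SPINK2, TFPI2, F2RL1, F2RL2) were added after their values were seen. Genes related to ARHGAP33 are not reported here. Of genes with several rows per symbol the one with most counts was used. On counts simulated from the levels and library sizes of this comparison (13679 genes), the test made 9 false calls. It called 53.0% of the 66 genes changed by 1.5-fold, 90.9% of the 66 changed by 2-fold and 100% of the 65 changed by 4-fold. Few genes were changed there, while 40.2% of tested genes were called in the data, so these rates need not hold for the data. All 30 pairs of libraries within a group differed by more than sampling noise, with chi-square over its degrees of freedom at 4.23 to 31.5. Alternatives were DESeq2 1.42.0, limma-voom (limma 3.58.1), other scalings and filters, the replicate number as a block, RNA integrity as a covariate and leaving out each library.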

Additional observations from a re-analysis of the deposited data

Results flagged for a closer look

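Of 20 sets of 6 values (5 genes, 2 groups, 2 scalings), 2 held a library that stood apart from the others by Dixon's test at the 95% level, and about 1 would do so by chance. With spike-in scaling, ARHGAP33 had 23.7 scaled CPM in scrambled siRNA replicate 4 (ratio 0.736), the library with the highest ratio of endogenous counts to the standards in its group. ANXA3 had 6.32 scaled CPM in SUPT4H1 siRNA replicate 5 (ratio 0.653), likewise the library with the highest such ratio in its group. In relative abundance neither gene had such a library.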

How the results depend on the processing

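In relative abundance, the 5 genes kept their direction and moved by less than 1 SD of the libraries under other scalings, filters, tools, covariates and with each library left out; FUT1 and ARHGAP33 were not measured under the filter of 5 CPM in 6 libraries. Leaving out 1 library gave −2.63 to −2.27 for FUT1, −2.24 to −2.002 for ARHGAP33, −2.04 to −1.83 for GSTO2, −2.07 to −1.81 for ANXA3 and −2.03 to −1.80 for PRSS3, with 2526 to 2907 rises and 2482 to 3000 falls called over all genes. Spike-in scaling moved all values, by its construction: 43 rises and 8152 falls over all genes, 0 rises and 29 falls among related genes, −3.20 for FUT1, −3.14 for ARHGAP33, −2.83 for GSTO2, −2.73 for ANXA3 and −2.83 for PRSS3. Among related genes the text names, signs turned under it for TSTA3 (−0.45), FUK (−0.26), FPGT (−0.36), GSTP1 (−0.00043), GSTCD (−0.35), ANXA4 (−0.27), ANXA5 (−0.37), ANXA1 (−0.52), ANXA7 (−0.73), ANXA11 (−0.66), S100A11 (−0.59), PRSS23 (−0.47), APP (−0.32), POFUT1 (−0.74) and F2RL1 (−0.72). With spike-in scaling the relation of PRSS3 to SUPT4H1 became 0.76, but a factor shared by both genes in a library then enters it, so nothing is read from that value. Leaving out 1 library gave −0.59 to 0.39 for that relation (0.39 without SUPT4H1 siRNA replicate 5), −0.51 to 0.76 for that of ARHGAP33 and −0.35 to 0.87 for that of GSTO2, both lowest and negative without replicate 4; the cause was not tested. Calls were followed for 21 called related genes that the rule named. SPINK2, TFPI2 and F2RL2, called and named later, were not among them. Of the 21, 16 kept their call without any 1 library. FPGT, FUT10, GSTCD, S100A11 and TSTA3 lost it in 2 to 6 of 12 cases. For FPGT these were SUPT4H1 siRNA replicates 2 and 3 and scrambled siRNA replicates 2, 4, 5 and 6. For FUT10 they were SUPT4H1 siRNA replicates 1, 2 and 3 and scrambled siRNA replicates 4 and 6. GSTCD lost its call without replicate 6 of either group. For S100A11 they were SUPT4H1 siRNA replicates 1, 3 and 5 and scrambled siRNA replicates 2, 3 and 5. For TSTA3 they were SUPT4H1 siRNA replicates 1 and 4 and scrambled siRNA replicates 1, 3 and 5. Of the same 21, GSTO1, GSTCD and S100A11 lost their call with RNA integrity as a covariate. Without a filter FUT10, FPGT and S100A11 lost theirs, and with the replicate block TSTA3, FPGT, GSTCD, ANXA2 and S100A11. Same-numbered libraries did not deviate together (correlations of −0.29 to 0.05, none best with its own number). With the replicate block, 2411 rises and 2426 falls were called, with 7 rises and 12 falls among related genes, and FUT1 stood at −2.46, ARHGAP33 at −2.10, GSTO2 at −1.97, ANXA3 at −1.96 and PRSS3 at −1.91. Depth limits FUT1 most, with as few as 2 counts per library.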
